A study of Mus musculus with 8 samples.

Results

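The H19-Igf2, Kcnq1-Cdkn1c and Dlk1-Meg3 gene clusters are imprinted regions of mouse chromosomes 7 and 12, and their H3K27me3 cover was described in adult male liver 3 h after TCPOBOP or vehicle. H3K27me3 is the trimethylation of histone H3 at lysine 27, laid down by Polycomb repressive complex 2. The clusters were taken as 3 approximate windows in mm9 coordinates, defined by genome position with no threshold on a measured value, though results of these data were known when the clusters were picked. The Igf2 window ran from 149750001 to 149860000 on chromosome 7 (110 kb, over H19 and Igf2, with Ins2 in the 10 kb just past its end). The Kcnq1 window ran from 150050001 to 150720000 on chromosome 7 (670 kb, over Kcnq1, Cdkn1c and Phlda2). The Dlk1 window ran from 110680001 to 110960000 on chromosome 12 (280 kb, over Dlk1 and Meg3). Together they held 106 of the 247224 10 kb bins of the 19 autosomes, and 8 member genes. Each gene was given a sub-window of whole 10 kb bins at its approximate mm9 position, and 10 further genes of the same windows were described beside the members.

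The treated mice were CD-1 (ICR) males, an outbred stock, aged 7 weeks, injected with 3 mg/kg TCPOBOP, an agonist of the nuclear receptor CAR, and controls of the same sex, age and stock received 1% DMSO in corn oil. Chromatin came from whole liver of individual mice, so the replicates of a treatment were separate animals. Fragments of 600 to 1100 bp, digested to 500 bp, gave 3 TCPOBOP and 3 vehicle libraries, and fragments over 1100 bp, digested to 200 bp, gave 1 further library from the ChIP sample of replicate 1 of each treatment. Each library was deposited as a list of islands, the stretches called as enriched in that library alone, and cover is the percent of a window that lies under islands. Signal of the parental alleles, or of different liver cell types, cannot be told apart in such a list.

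Imprinted genes are expressed from the maternal or the paternal allele alone, under the control of regions methylated on the DNA of a single parental copy. H19 is a maternally expressed noncoding RNA, and its neighbour Igf2, a paternally expressed fetal growth factor, competes with it for shared enhancers. Kcnq1ot1 is a paternally expressed noncoding RNA that starts inside Kcnq1 and silences flanking genes in cis, among them Cdkn1c and Phlda2, a process in which Polycomb proteins take part in the mouse embryo and placenta. At the third cluster the paternal allele expresses Dlk1 and Rtl1 and the maternal allele expresses the noncoding RNAs Meg3 and Rian. H19, Igf2 and Dlk1 are abundant in fetal liver and are switched off in hepatocytes after birth.

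Sequences of 250 bases upstream of the gene start were set beside the island cover, because CpG-rich promoters are the usual landing sites of Polycomb complexes in mammals. They are the RefSeq promoters of the GRCm38.p6 table, where 12 of the 18 genes and 4 of the 8 members (Igf2, Phlda2, Dlk1 and Meg3) had an entry. The sequences shown belong to a gene under an island in every library (Ascl2) and to the upstream promoter of Igf2. Others belong to genes with little island cover over the sub-window as a whole (Cd81 and Kcnq1ot1). The last belongs to the gene whose cover separated the treatments (Meg3). Each is written 5′ to 3′ on the strand of its gene, plus for Cd81 and Meg3 and minus for the other genes shown, and the capitals mark each CG dinucleotide.
Ascl2: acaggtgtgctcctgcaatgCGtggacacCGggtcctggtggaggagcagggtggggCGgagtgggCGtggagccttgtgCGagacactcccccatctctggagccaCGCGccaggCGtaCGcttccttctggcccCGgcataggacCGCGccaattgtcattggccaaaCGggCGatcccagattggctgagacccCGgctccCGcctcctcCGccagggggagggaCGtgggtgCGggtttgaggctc
Igf2: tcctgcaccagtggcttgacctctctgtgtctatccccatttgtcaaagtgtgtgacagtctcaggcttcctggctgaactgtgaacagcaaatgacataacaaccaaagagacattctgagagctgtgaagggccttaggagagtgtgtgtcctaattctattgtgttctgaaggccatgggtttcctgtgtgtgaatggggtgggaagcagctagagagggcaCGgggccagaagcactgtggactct
Cd81: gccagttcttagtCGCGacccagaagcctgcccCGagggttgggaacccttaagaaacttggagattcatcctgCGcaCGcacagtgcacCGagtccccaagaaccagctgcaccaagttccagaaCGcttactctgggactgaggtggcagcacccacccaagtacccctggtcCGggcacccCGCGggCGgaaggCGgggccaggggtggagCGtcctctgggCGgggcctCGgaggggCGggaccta
Kcnq1ot1: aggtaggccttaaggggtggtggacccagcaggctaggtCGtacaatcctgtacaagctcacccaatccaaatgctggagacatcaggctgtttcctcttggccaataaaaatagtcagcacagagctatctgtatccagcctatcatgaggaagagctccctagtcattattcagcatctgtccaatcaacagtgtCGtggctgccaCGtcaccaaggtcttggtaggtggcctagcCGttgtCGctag
Meg3: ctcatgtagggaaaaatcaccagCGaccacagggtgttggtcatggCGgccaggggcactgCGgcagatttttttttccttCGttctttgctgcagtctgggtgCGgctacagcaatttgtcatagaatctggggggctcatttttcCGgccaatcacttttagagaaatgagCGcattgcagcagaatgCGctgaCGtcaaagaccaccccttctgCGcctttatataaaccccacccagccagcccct
The motif searched was CG, which reads the same on both strands, and the median over all 32851 promoters of the table was 6. The Ascl2 sequence held 19, a number reached by 19.7% of all promoters, and that of Cd81 held 16, reached by 25.4%. The Meg3 sequence held 10 (37.8% of promoters), Kcnq1ot1 5 (55.6%) and the upstream Igf2 promoter 1 (92.1%). The other 3 Igf2 promoters of the table, not shown, held 10, 22 and 6, and 22 was reached by 14.8% of promoters. The promoters of Phlda2 and Dlk1, also not shown, held 21 (16.3%) and 8 (43.0%). Ascl2 and Igf2 lay under islands in every library. An island met the sub-window of Cd81 in 2 of 6 livers and that of Kcnq1ot1 in 3 of 6. At both genes that cover lay at the start side, where the promoter lies. The start-side bin of Cd81 was at 0% in each TCPOBOP liver and at 60, 76 and 0% in vehicle replicates 1 to 3. The start-side bin of Kcnq1ot1 was at 0, 0 and 52% in TCPOBOP replicates 1 to 3. In vehicle replicates 1 to 3 it was at 64, 100 and 0%. The sub-window of Phlda2 was met in 3 of 6 livers and that of Dlk1 in 6 of 6.

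Whole-list properties differed between libraries and bear on every value below. The lists of 600 to 1100 bp held 6295 to 14748 islands over 174 to 340 Mb of the autosomes, or 10.0, 11.3 and 7.04% in TCPOBOP replicates 1 to 3 and 13.7, 11.5 and 7.92% in vehicle replicates 1 to 3. The lists of fragments over 1100 bp covered 27.3% with TCPOBOP and 26.4% with vehicle. Median island width was 14.4, 22.8 and 24.4 kb in TCPOBOP replicates 1 to 3 and 26.8, 15.2 and 12.8 kb in vehicle replicates 1 to 3, so lists of wide islands (median over 20 kb) and of narrow islands occurred in both treatments. The lists give no read totals, so the depth is unknown and no counting interval was computed. Rows may be missing from these lists, so a stretch without an island is a stretch with no island listed and not one without the mark.

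All 3 windows carried more H3K27me3 cover than the autosomes in each of the 6 livers, and the order Igf2, then Kcnq1, then Dlk1 was the same in each. The Igf2 window was 100% covered in every library. Cover of the Kcnq1 window averaged 44.8 ± 14.1% and that of the Dlk1 window 35.2 ± 18.7%, against 10.3 ± 2.48% of the autosomes (SD, n = 6 livers). The Kcnq1 window exceeded the autosomes by 34.5 percentage points (17.1 to 49.7 over livers), and the Dlk1 window exceeded them by 24.96 points (0.962 to 47.3). The lowest of these, 0.962, belonged to TCPOBOP replicate 3, where 8% of the Dlk1 window was covered against 7.04% of the autosomes. The Kcnq1 window exceeded the Dlk1 window by 9.55 points (2.40 to 16.2). All 6 differences among the windows and the autosomes had the same sign in 6 of 6 livers (two-sided exact sign-flip permutation p = 0.03125, adjusted p = 0.03125 over the 6, the smallest this design can give). These comparisons were added after the values had been seen.

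Of the 106 bins, 20 (18.9%) lay at least 50% under islands in all 6 livers, against 2.86% of all autosomal bins. They comprised 11 of 11 bins of the Igf2 window, 7 of 67 of the Kcnq1 window and 2 of 28 of the Dlk1 window. At the other end, 21 of the 106 bins had no cover in any of the 6 livers, none of them in the Igf2 window, against 73.4% of all autosomal bins.

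**Figure D1:**
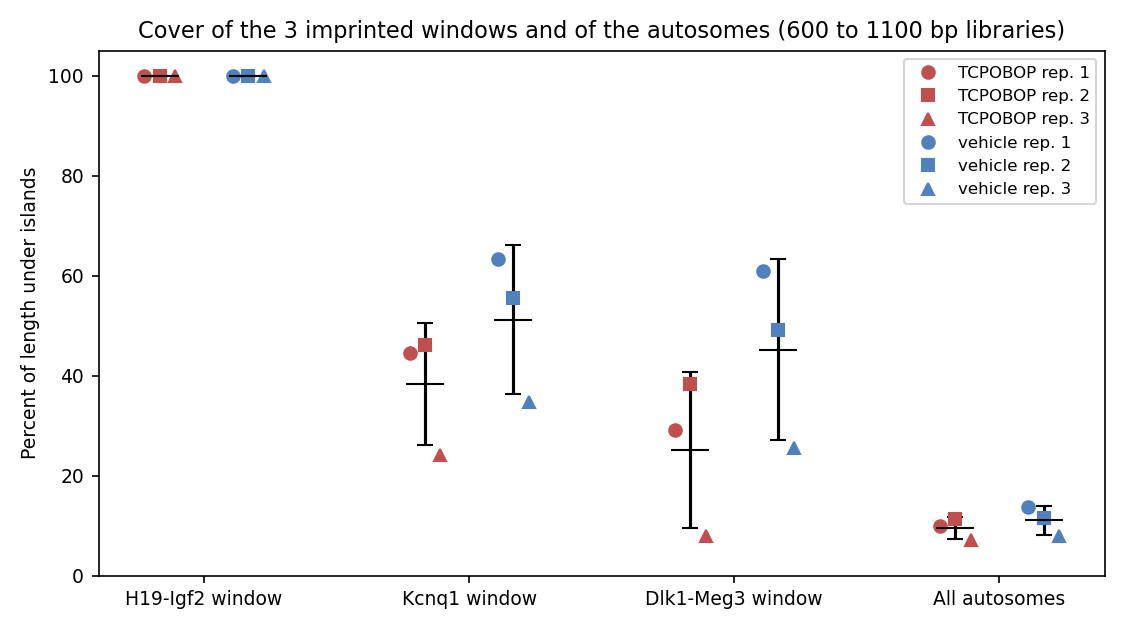
Percent of each window and of all autosomes under islands (vertical axis) in the libraries of 600 to 1100 bp, TCPOBOP left and vehicle right within each group; each point is 1 liver and the bars are the mean and SD of 3. All 6 livers stand at 100% in the H19-Igf2 window, and the treatments overlap in the Kcnq1 and Dlk1-Meg3 windows.

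H19 and Igf2 lay under a single island in every one of the 8 lists. The island was 136, 128 and 163.6 kb wide in TCPOBOP replicates 1 to 3 and 133.2, 143.2 and 135.6 kb in vehicle replicates 1 to 3. It was 158.4 kb wide with TCPOBOP and 192.4 kb with vehicle in fragments over 1100 bp. The widths of the treatments overlapped. Its start varied by 15.2 kb over the 6 livers, from 149730801 to 149746001, and its end by 26.4 kb, from 149868000 to 149894400. It was also among the highest-scoring islands of each list, by the authors' score. That score is used here only within a list, except for 1 alternative with a common score minimum. It ranked 15 of 13759, 19 of 10197 and 10 of 6295 in TCPOBOP replicates 1 to 3, and 24 of 10057, 16 of 14748 and 10 of 12430 in vehicle replicates 1 to 3. The rank was 110 of 22077 with TCPOBOP and 96 of 17577 with vehicle in fragments over 1100 bp. Since a wide island sums more windows, the rank by score per kb was lower, at 258, 128 and 424 in TCPOBOP replicates 1 to 3 and at 91, 200 and 678 in vehicle replicates 1 to 3.

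Ins2, which encodes one of the mouse insulins, lay at the far edge of the same island. Its 10 kb sub-window was covered at 100, 96 and 100% in TCPOBOP replicates 1 to 3 and at 80, 100 and 100% in vehicle replicates 1 to 3. The lowest value came from the vehicle liver whose island ended first.

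**Figure D2:**
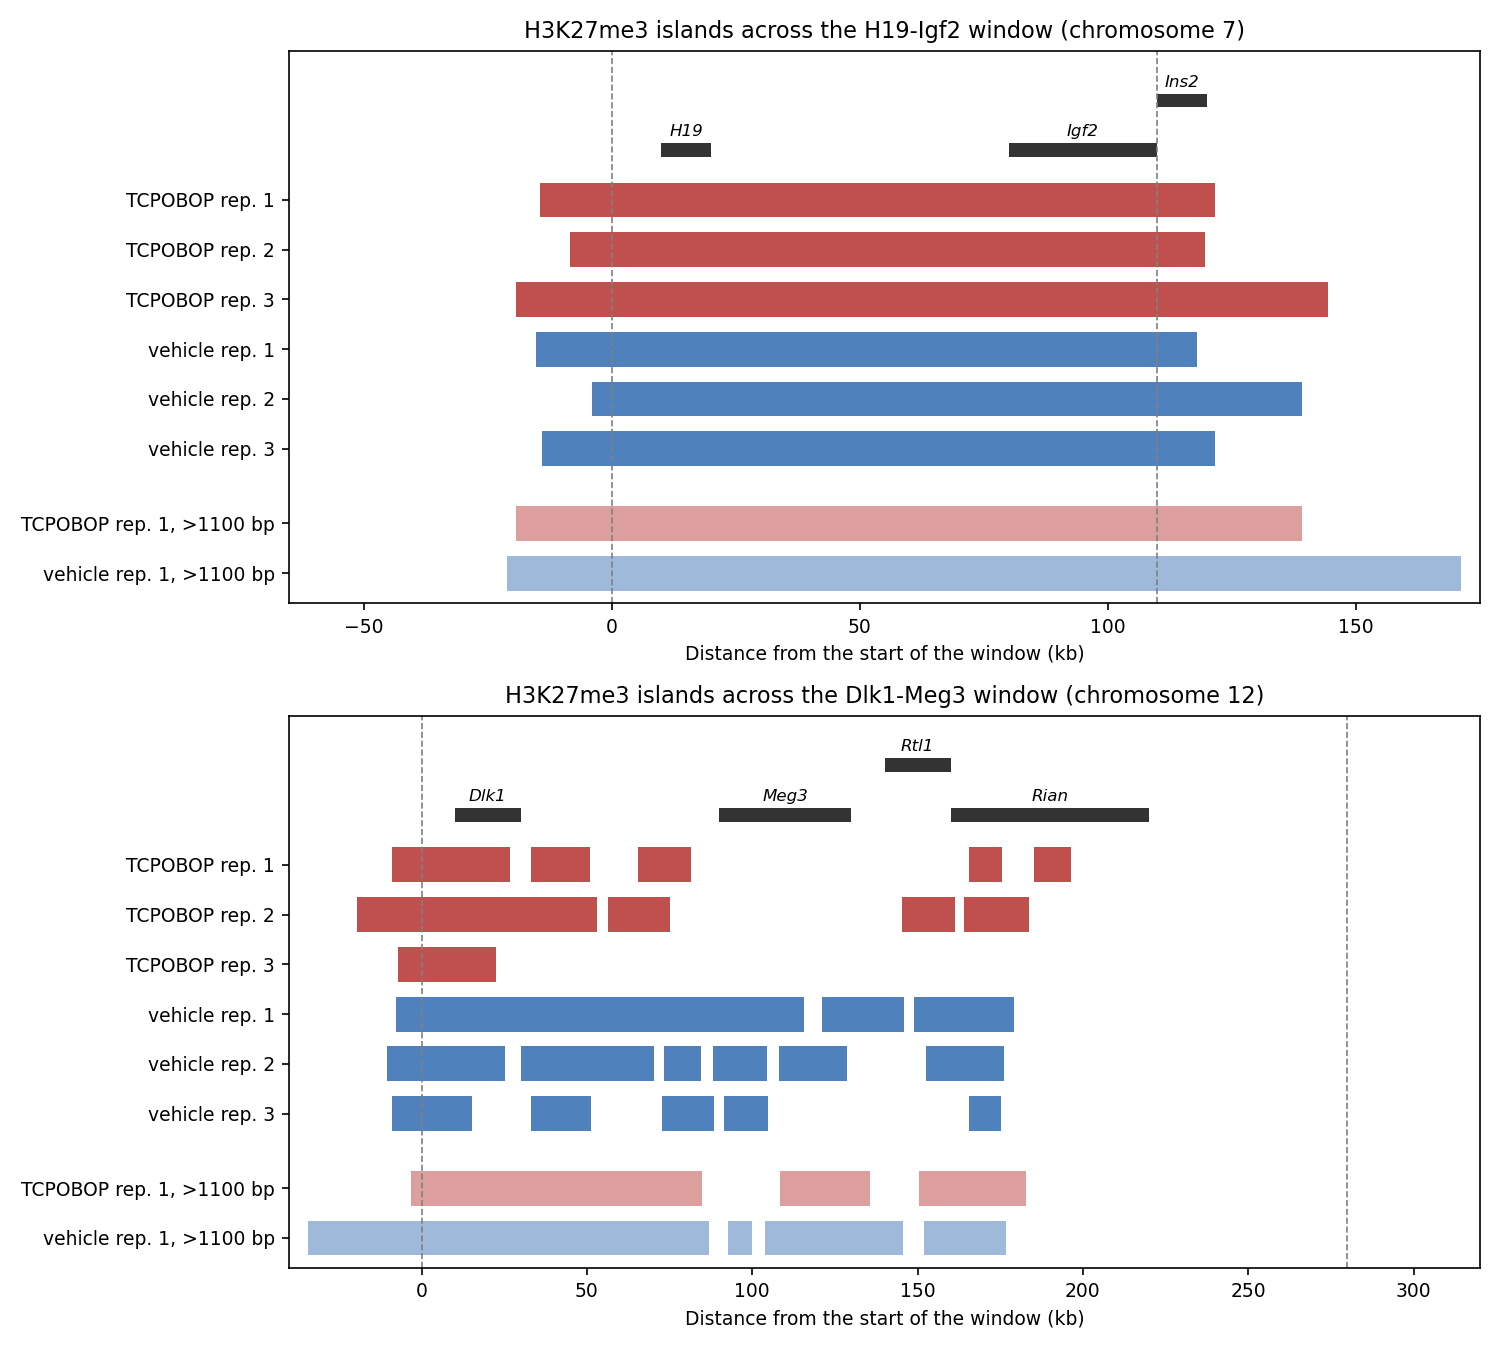
Islands (bars) of each library, 1 row per library with TCPOBOP above vehicle, against distance in kb from the start of the H19-Igf2 window (upper panel) and of the Dlk1-Meg3 window (lower panel); dashed lines are window edges, dark boxes are gene sub-windows and pale bars are fragments over 1100 bp. A single island spans H19 and Igf2 in all 8 libraries, while over Meg3 islands appear in 3 of 3 vehicle and 0 of 3 TCPOBOP libraries of 600 to 1100 bp.

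The Kcnq1 window was a mosaic of covered and open stretches that recurred between livers. It held 10, 8 and 7 islands in TCPOBOP replicates 1 to 3 and 8, 11 and 13 in vehicle replicates 1 to 3. The stretches under an island in all 6 livers summed to 63.6 kb of the 670 kb, and 61.2 kb of these were covered in all 8 lists. They lay at Ascl2 (150150001 to 150163600, 13.6 kb, with stretches of 2 and 0.8 kb beyond it), at Trpm5 (150272801 to 150286400, 13.6 kb), and at the border of Trpm5 and Kcnq1 (150289201 to 150294800, 5.6 kb). The others lay just past the Kcnq1 sub-window towards Cdkn1c (150618801 to 150634000, 15.2 kb) and at Cdkn1c (150644001 to 150656800, 12.8 kb).

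Cdkn1c encodes the cell-cycle inhibitor p57, a maternally expressed growth suppressor. Its sub-window was covered at 100, 100 and 60% in TCPOBOP replicates 1 to 3 and at 100% in each of the 3 vehicle livers. The 60% came from TCPOBOP replicate 3, the list with the fewest islands. Both lists of fragments over 1100 bp covered it at 100%. The edge of the Cdkn1c island on the Slc22a18 side fell between 150656800 and 150664800 in the 6 livers, a range of 8 kb, whereas the edge on the Kcnq1 side ranged over 44.4 kb. In TCPOBOP replicates 1 to 3 the island at Cdkn1c ranked 334, 505 and 3005 by score in its list, and in vehicle replicates 1 to 3 it ranked 2717, 482 and 1069. The 3 poorest ranks were those of TCPOBOP replicate 3 and vehicle replicates 1 and 3, where the stretch was split into a pair of islands at a gap on the Kcnq1 side of the gene.

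Ascl2, a transcription factor of the trophoblast and intestinal stem cells, was 100% covered in all 8 lists. The left edge of its island ranged over 38.8 kb in the 6 livers, and the right edge over 72.4 kb, against 8 kb for the right edge at Cdkn1c. Trpm5, a cation channel of taste cells, was covered at 54, 61 and 46% in TCPOBOP replicates 1 to 3 and at 60, 43 and 46% in vehicle replicates 1 to 3. Th, which encodes tyrosine hydroxylase of catecholamine synthesis, was covered at 66, 80 and 0% in TCPOBOP replicates 1 to 3 and at 100, 58 and 56% in vehicle replicates 1 to 3. The treatments overlapped at both genes. Tspan32, between Ascl2 and Cd81, was covered at 34, 20 and 80% in TCPOBOP replicates 1 to 3. In vehicle replicates 1 to 3 it was at 100, 90 and 18%, so the treatments overlapped there too.

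Kcnq1, a potassium channel gene whose body hosts the Kcnq1ot1 start, was covered in its outer parts and free of islands in its centre. Its 330 kb sub-window was covered at 35.3, 45.2 and 13.6% in TCPOBOP replicates 1 to 3 and at 59.3, 49.7 and 27.4% in vehicle replicates 1 to 3. It was covered at 39.3% with TCPOBOP and 45.1% with vehicle in fragments over 1100 bp. The widest stretch of the window with no island in any of the 8 lists lay inside it, over 90.4 kb from 150384001 to 150474400. That stretch took in most of the Kcnq1ot1 sub-window, which was covered at 0, 0 and 5.2% in TCPOBOP replicates 1 to 3 and at 6.4, 15.6 and 0% in vehicle replicates 1 to 3. What cover there was fell in the 2 bins nearest the Kcnq1ot1 start. The bin from 150480001 to 150490000 was covered at 0, 0 and 52% in TCPOBOP replicates 1 to 3 and at 64, 100 and 0% in vehicle replicates 1 to 3. Neither list of fragments over 1100 bp had an island there.

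**Figure D3:**
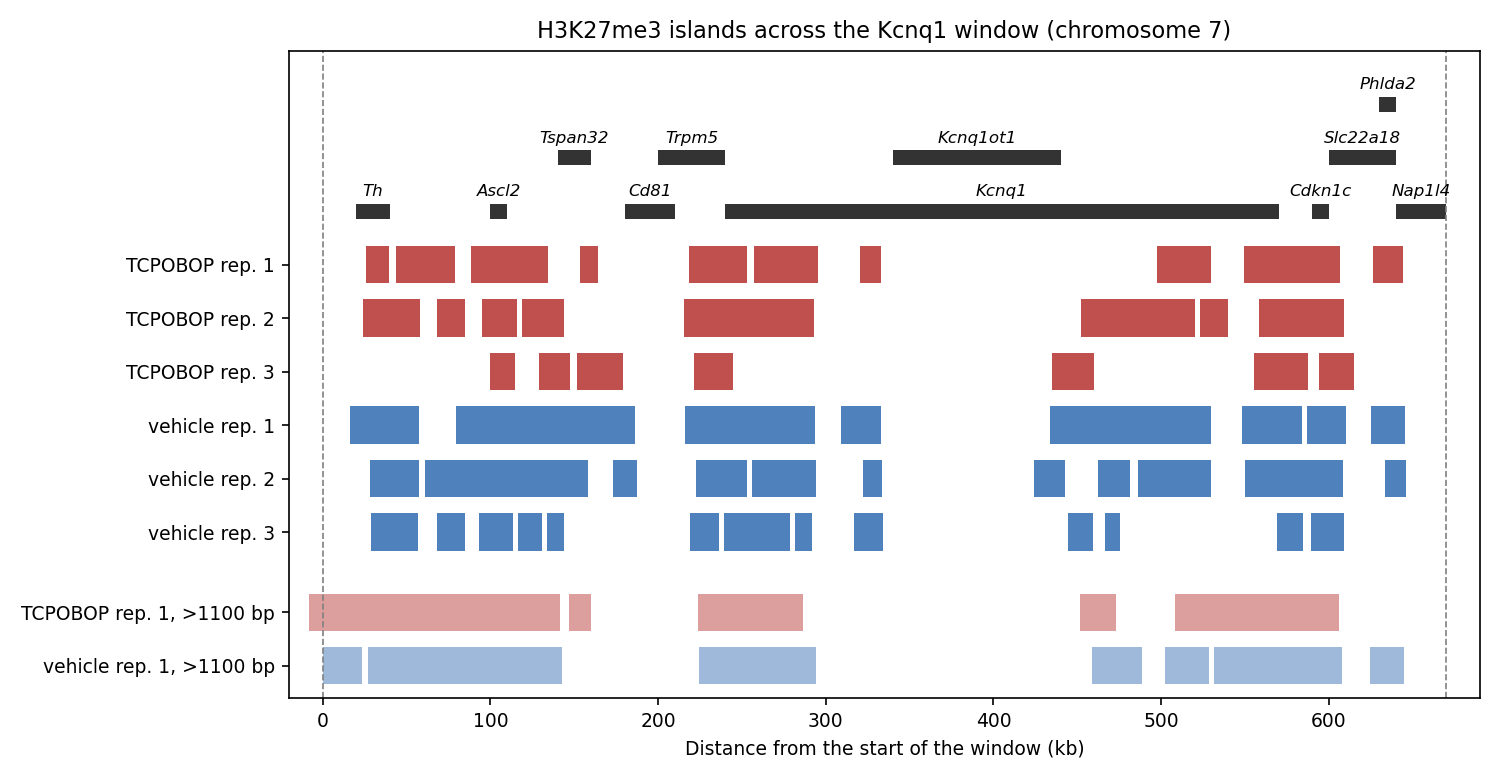
Islands (bars) of each library, 1 row per library with TCPOBOP above vehicle, against distance in kb from the start of the Kcnq1 window; dark boxes are gene sub-windows, dashed lines are window edges and pale bars are fragments over 1100 bp. Islands recur in all 8 libraries at Ascl2, at Trpm5 and the start side of Kcnq1, and at Cdkn1c, and a gap of 90.4 kb over most of Kcnq1ot1 is shared by all 8.

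Phlda2, a maternally expressed inhibitor of placental growth, was the member with the least even cover. Its 10 kb sub-window was covered at 100, 0 and 0% in TCPOBOP replicates 1 to 3 and at 100, 64 and 0% in vehicle replicates 1 to 3. In fragments over 1100 bp it was at 0% with TCPOBOP and 100% with vehicle. An island therefore met Phlda2 in 1 of 3 TCPOBOP and 2 of 3 vehicle livers, and where it was listed its right edge varied by 1.6 kb. The TCPOBOP ChIP sample of replicate 1 gave 100% in one fragment class and 0% in the other. Its neighbour Slc22a18, an imprinted transporter, was covered at 51, 22 and 37% in TCPOBOP replicates 1 to 3 and at 63, 37 and 22% in vehicle replicates 1 to 3. Nap1l4, a histone chaperone gene at the far end, stood at 14.7, 0 and 0% in TCPOBOP replicates 1 to 3 and at 18.7, 20 and 0% in vehicle replicates 1 to 3. The last 24 kb of the window had no island in any of the 8 lists. Cd81, a tetraspanin of the cell surface made in many tissues including liver, was at 0% in all 3 TCPOBOP livers and at 20, 25.3 and 0% in vehicle replicates 1 to 3. A gap of 28 kb, from 150237601 to 150265600, was shared by all 8 lists. It took in parts of the Cd81 and Trpm5 sub-windows, which overlap.

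Dlk1, a membrane protein of the Notch ligand family that marks fetal hepatoblasts, kept an island at its start side in every list. The stretch from 110680001 to 110695200 (15.2 kb) was covered in all 8 libraries, and the left edge of the island varied by 12.4 kb over the 6 livers. The right edge varied by 100.4 kb, from 110695200 to 110795600. The Dlk1 sub-window was covered at 84, 100 and 62% in TCPOBOP replicates 1 to 3 and at 100, 76 and 26% in vehicle replicates 1 to 3. Both lists of fragments over 1100 bp covered it at 100%. The treatments overlapped.

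Meg3 was the 1 member of 8, and the 1 gene of the 18 described, where the treatments did not overlap. Its 40 kb sub-window (110770001 to 110810000) was at 0% in all 3 TCPOBOP livers and at 86, 88 and 33% in vehicle replicates 1 to 3. The difference was -69.0 percentage points, between 0% with TCPOBOP and 69.0 ± 31.2% with vehicle (SD, n = 3 each; two-sided exact permutation p = 0.1, adjusted p = 1 over 18 genes). That p is the smallest that 3 livers against 3 can give, so the difference could not pass 0.05. Over all 40 kb tiles of the autosomes with any cover, all TCPOBOP livers lay below all vehicle livers in 3.74%, and the TCPOBOP livers were all at 0 with the vehicle livers all above 0 in 0.899%. A count of 1 is the smallest above 0 that 18 genes can give, so it cannot be weighed against either share. The 18 sub-windows were also 10 to 330 kb long, unlike the tiles.

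The islands behind the vehicle cover at Meg3 mostly had middle or low ranks. In vehicle replicate 1 an island of 123.2 kb, rank 206 of 10057, ran from Dlk1 into Meg3, and a further one ranked 9137. In vehicle replicate 2 the islands over Meg3 ranked 7242 and 11420 of 14748, and in vehicle replicate 3 the island ranked 5909 of 12430. When islands under a common score minimum were removed from all 6 lists, Meg3 stayed at 0% in each TCPOBOP liver. It stood at 86, 36 and 0% in vehicle replicates 1 to 3 (exact permutation p = 0.4), so the treatments overlapped. The minimum, 84.6, was the lowest score of vehicle replicate 1, so that list lost no island. The lowest score of vehicle replicate 3 was 41.0. When each list was cut to an equal covered length, keeping its best islands, Meg3 stood at 0% in each TCPOBOP liver and at 64, 0 and 33% in vehicle replicates 1 to 3. Fragments over 1100 bp of the TCPOBOP ChIP sample that gave 0% covered Meg3 at 54%, and those of vehicle replicate 1 at 83%. With the fragment classes of each ChIP sample merged, the treatments overlapped, at 54, 0 and 0% with TCPOBOP and 100, 88 and 33% with vehicle.

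Rtl1, a retrotransposon-derived gene of placental function whose sub-window may hold only a part of it, was covered at 0, 74 and 0% in TCPOBOP replicates 1 to 3 and at 86, 38 and 0% in vehicle replicates 1 to 3. Rian, a noncoding RNA that hosts small nucleolar RNAs, was covered at 35.3, 34.7 and 0% in TCPOBOP replicates 1 to 3 and at 32, 26.7 and 16% in vehicle replicates 1 to 3. The treatments overlapped at both. No island was listed in any of the 8 libraries over the last 83.6 kb of the window. That stretch began at 110876401, inside the Rian sub-window.

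**Figure D4:**
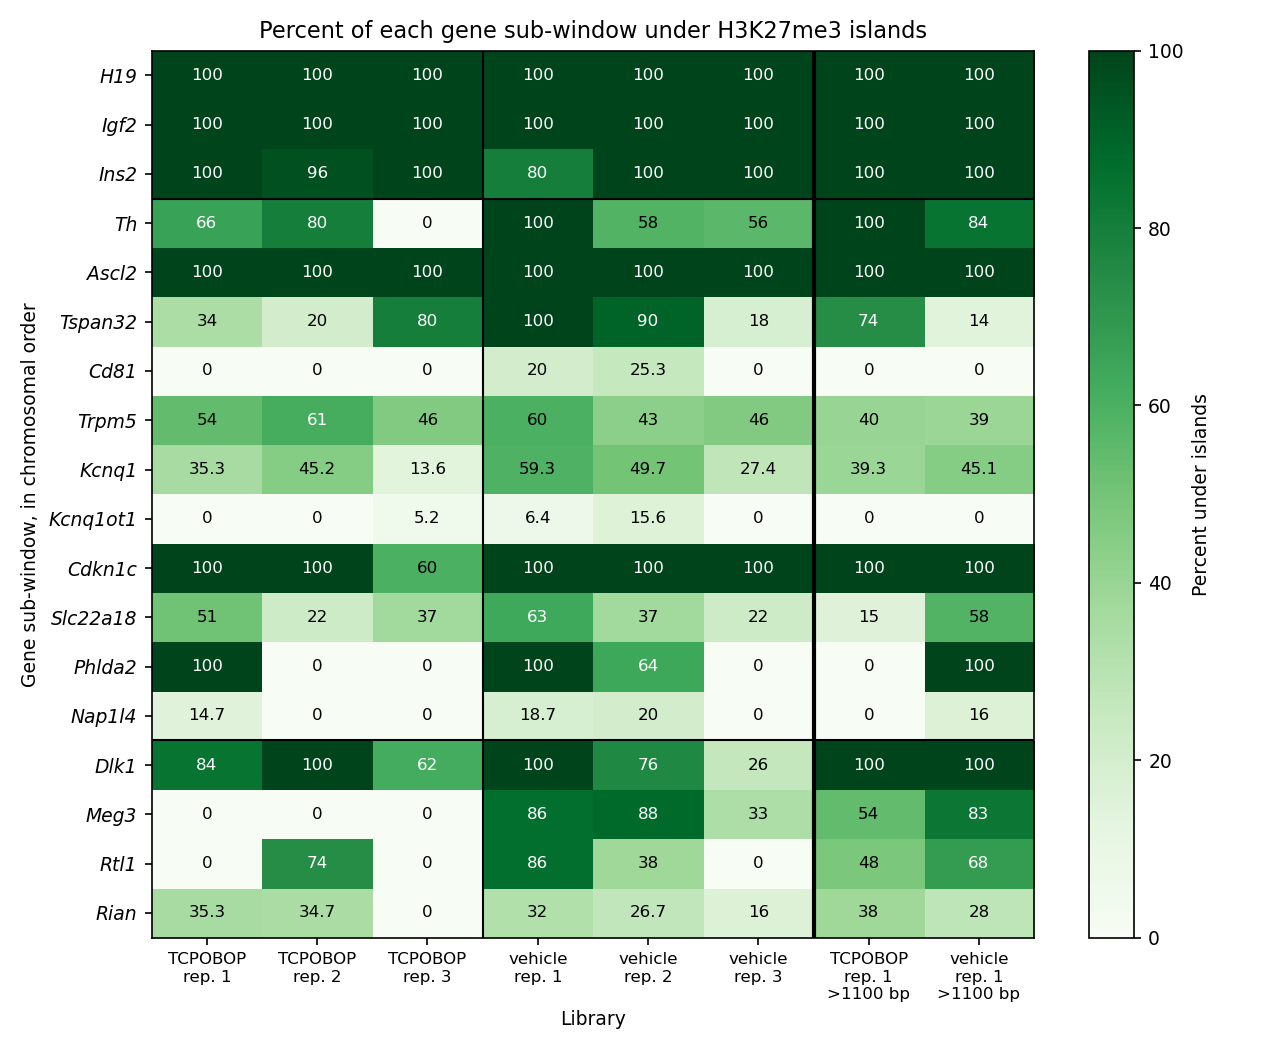
Percent of each gene sub-window under islands (colour and printed value) for the 18 genes in chromosomal order, with TCPOBOP libraries left of vehicle libraries and fragments over 1100 bp at the right. H19, Igf2 and Ascl2 are at 100% in all 8 libraries, and Meg3 is at 0% in the 3 TCPOBOP libraries and at 33 to 88% in the 3 vehicle libraries of 600 to 1100 bp.

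The study asked whether TCPOBOP altered the mark within 3 h, and no difference between treatments at these clusters passed a test. Cover of the Igf2 window was 100% with TCPOBOP and 100% with vehicle. The window lay wholly inside a single island in every list, so its cover cannot show whether the mark changed. Cover of the Kcnq1 window was 44.5, 46.2 and 24.2% in TCPOBOP replicates 1 to 3 and 63.4, 55.6 and 34.7% in vehicle replicates 1 to 3. The means were 38.3 ± 12.3% and 51.2 ± 14.8%, a difference of -12.9 points for TCPOBOP minus vehicle (SD, n = 3 each; two-sided exact permutation p = 0.4, adjusted p = 0.6 over 3 windows). Cover of the Dlk1 window was 29.1, 38.4 and 8% in TCPOBOP replicates 1 to 3 and 61, 49.1 and 25.6% in vehicle replicates 1 to 3. The means were 25.2 ± 15.6% and 45.2 ± 18.03%, a difference of -20.0 points (SD over 3 livers each; two-sided exact permutation test, p = 0.3 and 0.6 when adjusted over the windows). The livers of the treatments overlapped in both windows. The Kcnq1 difference was -5.85 points without TCPOBOP replicate 3, -6.83 without vehicle replicate 1 and -21.2 without vehicle replicate 3. The Dlk1 difference was -11.5 points without TCPOBOP replicate 3 and -12.2 without vehicle replicate 1.

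The third replicate was the lowest of its treatment in both windows, as it was over the autosomes. Set against the autosomal cover of the same liver, the Kcnq1 window was covered 4.44, 4.09 and 3.44-fold in TCPOBOP replicates 1 to 3 and 4.61, 4.84 and 4.38-fold in vehicle replicates 1 to 3. The Dlk1 window stood at 2.90, 3.40 and 1.14-fold in TCPOBOP replicates 1 to 3 and at 4.44, 4.28 and 3.23-fold in vehicle replicates 1 to 3. The Kcnq1 difference was -28.2 points among the wide-island lists (TCPOBOP replicates 2 and 3 and vehicle replicate 1) and -0.597 among the narrow-island lists. This split was not planned, and each set of lists held a single liver of 1 treatment. Among the wide-island lists the Dlk1 window was at 38.4 and 8% in TCPOBOP replicates 2 and 3 and at 61% in vehicle replicate 1. Among the narrow-island lists it was at 29.1% in TCPOBOP replicate 1 and at 49.1 and 25.6% in vehicle replicates 2 and 3, so the treatments overlapped there. In the lists cut to equal covered length the Dlk1 window was at 25.1, 19 and 8% in TCPOBOP replicates 1 to 3 and at 41.3, 31.9 and 25.6% in vehicle replicates 1 to 3. These did not overlap (exact permutation p = 0.1, the smallest possible). The part of list properties in these values was not tested.

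By bin, 3 of the 85 bins of the windows with any cover had all TCPOBOP livers below all vehicle livers, or 3.53% against 2.55% of autosomal bins with any cover, and 0 had the reverse, against 0.842%. The 3 bins adjoin each other at the start side of Meg3, from 110760001 to 110790000. The first was covered at 16, 0 and 0% in TCPOBOP replicates 1 to 3 and at 100, 64 and 84% in vehicle replicates 1 to 3. The middle bin was at 0% in all 3 TCPOBOP livers and at 100, 100 and 84% in vehicle replicates 1 to 3. The last was at 0% in all 3 TCPOBOP livers and at 100, 64 and 48% in vehicle replicates 1 to 3. Neighbouring bins lie under the same islands and are not separate observations. Fragments over 1100 bp gave 48, 0 and 16% over these bins with TCPOBOP, in order along the chromosome, and 68, 72 and 60% with vehicle.

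Fitted across all 54794 autosomal bins with a mean cover of at least 10%, limma called 0 bins at an adjusted p under 0.05 in either direction (0%). At an unadjusted p under 0.05 it had 291 higher and 938 lower bins with TCPOBOP (1.71% lower). Of the 80 tested bins of the windows 3 were lower at that level and 0 higher, and these were the same 3 bins at Meg3. The middle one had a difference of -94.7 points (SE 23.1, limma adjusted p = 0.766). Over the 80 bins, TCPOBOP means were lower in 52 (65%) and higher in 12, against 55.8% lower over all bins tested. The median difference was -12.7 points over the 80 bins, against -5.33 over all bins tested. With each library centred on its own median, 36 were lower (45%) and 42 higher, so the split between directions turned with this scaling. Of all bins tested, 37.6% were lower under this centring. The median difference was then 4.67 points over the 80 bins, against 12 over all bins tested. The windows thus had the lower median under both scalings, a gap that was not tested. Centring shifts all bins of a library by a constant, so bins with no difference before it, as in the Igf2 window, gained one. The 0 calls do not show that cover was the same, since the spread between livers was wide.

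Fragments over 1100 bp covered more of both windows than the 600 to 1100 bp fragments of the same ChIP sample with TCPOBOP, and less with vehicle. With TCPOBOP the Kcnq1 window was covered at 50.2% in fragments over 1100 bp and 44.5% in those of 600 to 1100 bp, and the Dlk1 window at 51.6 and 29.1%. With vehicle the Kcnq1 window was covered at 54.0% in fragments over 1100 bp and 63.4% in those of 600 to 1100 bp, and the Dlk1 window at 57.3 and 61%. Trpm5 was covered less by the longer fragments in both samples, at 40 against 54% with TCPOBOP and at 39 against 60% with vehicle. Relative to the wide autosomal cover of these 2 lists the Igf2, Kcnq1 and Dlk1 windows stood at 3.66, 1.84 and 1.89-fold with TCPOBOP and at 3.79, 2.04 and 2.17-fold with vehicle. From Th to Ascl2 they gave continuous islands, 150 kb wide at rank 381 with TCPOBOP and 116 kb wide at rank 447 with vehicle, where the lists of 600 to 1100 bp were broken. With 1 library of this class per treatment there is no test, and fragment class and depth cannot be told apart.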

How the data were processed

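H3K27me3 ChIP-seq islands of 8 liver libraries were analysed. Each deposited list gives the authors' islands of a single library, not of pooled replicates, with a score per island. Bowtie2 2.3.2, SICER 1.1 and mm9 are listed in the submitters' processing notes, with no roles. The names of the lists state a 400 bp window and a 2400 bp gap. Whether an input was subtracted is not given in the sources used. The deposited score was used to rank or filter islands within a list, except for 1 alternative with a common score minimum of 84.6.

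Cover was computed in Python 3.11.15 (numpy 2.4.6, pandas 2.3.3, matplotlib 3.10.9) as the percent of a window, sub-window or 10 kb bin under islands. Groups were compared by exact permutation of the treatment labels (two-sided, difference of means, 20 labellings), and windows and autosomes by exact sign-flips over 6 livers. Bins were compared with limma 3.58.1 (R 4.3.3, trend, Benjamini-Hochberg at 0.05). The limma fit was also run on simulated data, and no outcome of that run is used here. Equal covered length kept the best-scoring islands of each list up to 174 Mb of autosomes. Coordinates are mm9 and 1-based. No mm9 annotation was used, so gene positions are approximate. Their spacing from H19 or Dlk1 lay within 20 kb of that in GRCm38.p6 for 18 of 18 genes, these anchors included. Since some sub-windows are 10 kb long and a shared offset would not appear, this does not place a gene inside its sub-window. Tissue identity was not checked against markers, since the lists hold no expression values.

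The text names the 8 members, 10 other genes of the same windows, the longest covered and open stretches, and every bin that separated the treatments. Windows follow genome position alone, but the members, gene lists and tests were chosen with earlier results of these data known.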

Additional observations from a re-analysis of the deposited data

How the results depend on the processing

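Depth is unknown and each treatment had 3 livers, so a missed threshold says little about stability. The direction at the Kcnq1 and Dlk1 windows was kept under every alternative tried, with differences of -21.2 to -5.85 and -29.9 to -11.5 points when each liver was left out. The Igf2 window differed by 3.56 points when widened by 20 kb on each side and by 1.47 as a fold of autosomal cover. The excess of each window over the autosomes and over the next window kept its sign without any 1 liver, with p at 0.0625 because 5 livers allow no less. The ranges were 89.1 to 90.4 (Igf2 minus autosomes), 31.5 to 38.0 (Kcnq1 minus autosomes), 20.5 to 29.8 (Dlk1 minus autosomes), 51.1 to 59.0 (Igf2 minus Kcnq1), 59.3 to 69.9 (Igf2 minus Dlk1) and 8.23 to 11.0 points (Kcnq1 minus Dlk1).

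The 20 bins present in all livers became 20 to 35 without 1 liver, 35 being without TCPOBOP replicate 3. Genes whose treatments did not overlap, 1 (Meg3), numbered 0 with the score minimum, with equal covered length and with merged fragment classes. They numbered 2 as a fold of autosomal cover (1 lower, 1 higher) and 1 to 6 with 1 liver left out, 6 being without vehicle replicate 3. Autosomal tiles were counted in the main setting only, so these gene counts have no share beside them. Meg3 itself differed by -87.0 to -59.5 points without 1 liver. Separated bins, 3 (all lower with TCPOBOP, against 2.55% of autosomal bins), numbered 0 with the score minimum (1.25%), 1 with equal covered length (1.41%) and 5 in 5 kb bins (1.89%). With merged fragment classes they again numbered 3 (0.478%). Without 1 liver they numbered 4 to 13, while 3.62 to 9.04% of autosomal bins with any cover were lower with TCPOBOP. The 13 were found without vehicle replicate 3 (9.04%). These counts included 2 higher of 6 without TCPOBOP replicate 3 (3.63% of autosomal bins higher). They also included 1 higher of 6 without vehicle replicate 2 (1.78%). For each autosomal bin with any cover, the deviation of a liver from the mean of its treatment was taken. These deviations, not the cover itself, correlated between same-numbered replicates at 0.0291, 0.0225 and 0.0814. The numbers were therefore not taken as pairs. With the replicate block 2 genes and 7 bins moved one way in all 3 pairs. No share over all autosomal bins stands beside these counts, so they cannot be weighed.

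Differences at 8 genes turned sign, none past a threshold, and the cause was not tested. Slc22a18 (-4 points) gave 1.33 with the score minimum, 13.7 with equal covered length, 0.568 as a fold of autosomal cover and -13.3 to 7.17 without 1 liver. Phlda2 (-21.3) gave 33.3 and Nap1l4 (-8) 4.89 with equal covered length. Ins2 (5.33) gave -1.33 and Rian (-1.56) 5.56 with merged fragment classes. Without 1 liver the ranges were -54.7 to 1.33 for Phlda2, -1.33 to 8.67 for Ins2, -7.56 to 10.1 for Rian, -38.3 to 1.67 for Th (-22.7), -41.3 to 5.67 for Rtl1 (-16.7) and -6 to 31 for Dlk1 (14.7).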
